A study of Homo sapiens with 4 samples.

Results

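MAP kinase phosphatases and Sprouty proteins switch off the signals that growth factors send through RAS and the MAP kinases ERK, JNK and p38. The 10 genes examined here encode 5 dual-specificity phosphatases (DUSP1, DUSP4, DUSP5, DUSP6 and DUSP10), 3 Sprouty proteins (SPRY1, SPRY2 and SPRY4) and 2 Sprouty-related proteins (SPRED1 and SPRED2). They were chosen by name, as the rows on primary chromosomes that carry these symbols among 63677 genes in each count file, and all 10 were found and passed the low-count filter that left 15398 genes tested. The RNA came from IMR90, human fetal lung fibroblasts, transfected for 72 h with a non-targeting control siRNA (NTC) or with siRNA against HMGB1, a chromatin- and RNA-binding protein. Of the 2 libraries of a group, the first replicate was made from isolate I90-10 and the second from I90-79, both at passage 5 and in medium with serum. The same isolates served in both groups, so each knockdown library has a control of its own isolate.

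A dual-specificity phosphatase inactivates a MAP kinase by removing phosphates from the threonine and the tyrosine that activate it. Sprouty proteins act further upstream, between receptor tyrosine kinases and the MAP kinase cascade, and SPRED proteins bring the RAS-inactivating protein neurofibromin to the membrane. Many of these genes are themselves transcribed in response to ERK activity, which makes their mRNAs a common readout of the pathway as well as its brake. In fibroblasts this feedback limits the response to serum, FGF, PDGF and EGF family ligands.

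Upon HMGB1 knockdown, SPRY2, SPRY4 and DUSP10 had more mRNA and SPRED1 had less, in both isolates. Without a term for the isolate, the quasi-likelihood test of edgeR called 0 of the 10 genes up and 0 down, where a call needed both an adjusted p under 0.01 and a log2 fold change beyond 0.6 in size, against 0.0649% of all genes tested called up and 0.136% called down. At an unadjusted p below 0.05 there were 5 of the 10, against 28.3% of all genes. When the isolate was entered as a replicate block, 3 were called up (SPRY2, SPRY4 and DUSP10) and 1 down (SPRED1), against 6.68% and 7.84% of all genes. The block leaves 1 residual degree of freedom, against 2 without it, so its p-values lean heavily on the spread estimated across all genes. DESeq2 called the same 3 genes up and the same gene down without the block, where 4.71% of all genes were called up and 5.31% down, and with it, where 6.28% were called up and 7.09% down. In bulk RNA, fewer cells with a transcript and fewer copies of it per cell cannot be told apart. The median log2 fold change without the block was 0.29 for the 10 genes and −0.0054 for all genes tested.

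HMGB1 itself had 181 and 237 CPM (read counts scaled to library size with the TMM factors of edgeR) in the control libraries and 15.96 and 18.9 CPM in the knockdown libraries, each pair in the order I90-10, I90-79. The groups lay far apart, and the log2 fold change was −3.59 (SE, the standard error, 0.19; adjusted p = 0.0075). Without either knockdown library this call was lost (adjusted p = 0.049 without replicate 1 and 0.032 without replicate 2). Library totals lay between 29861687 and 35317010 counted reads, and the 10 genes had from 138 reads (DUSP4) to 6551 reads (SPRY4) in a library. An exact two-sided permutation test on groups of this size cannot go below p = 0.333, so every adjusted p is that of an edgeR fit over all genes tested. All 10 fibroblast markers checked were tested, and their summed expression was 17418 to 32951 CPM in control and 20242 to 32002 CPM in knockdown libraries. With the block LUM was called up and PDGFRB and THY1 down, 30% of these markers, against 14.5% of all genes. Of the leukocyte markers, 0 of 6 passed the filter (summed to between 0.288 and 0.353 CPM per library). Of 6 endothelial markers 3 were tested, with summed values of 150 and 149 CPM in control and 136 CPM in both knockdown libraries. Nearly all of this was TEK, CDH5 had 0 reads, and VWF, at 1.36 and 0.923 CPM in control and 4.16 and 2.59 CPM in knockdown libraries, was called up with the block. Of 7 epithelial markers 4 were tested, with summed values of 64.0 and 68.0 CPM in control and 82.0 and 99.1 CPM in knockdown libraries, while CDH1 had 1 read in all. KRT18 was called up with the block. The part of these transcripts in the results below was not tested.

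**Figure D1:**
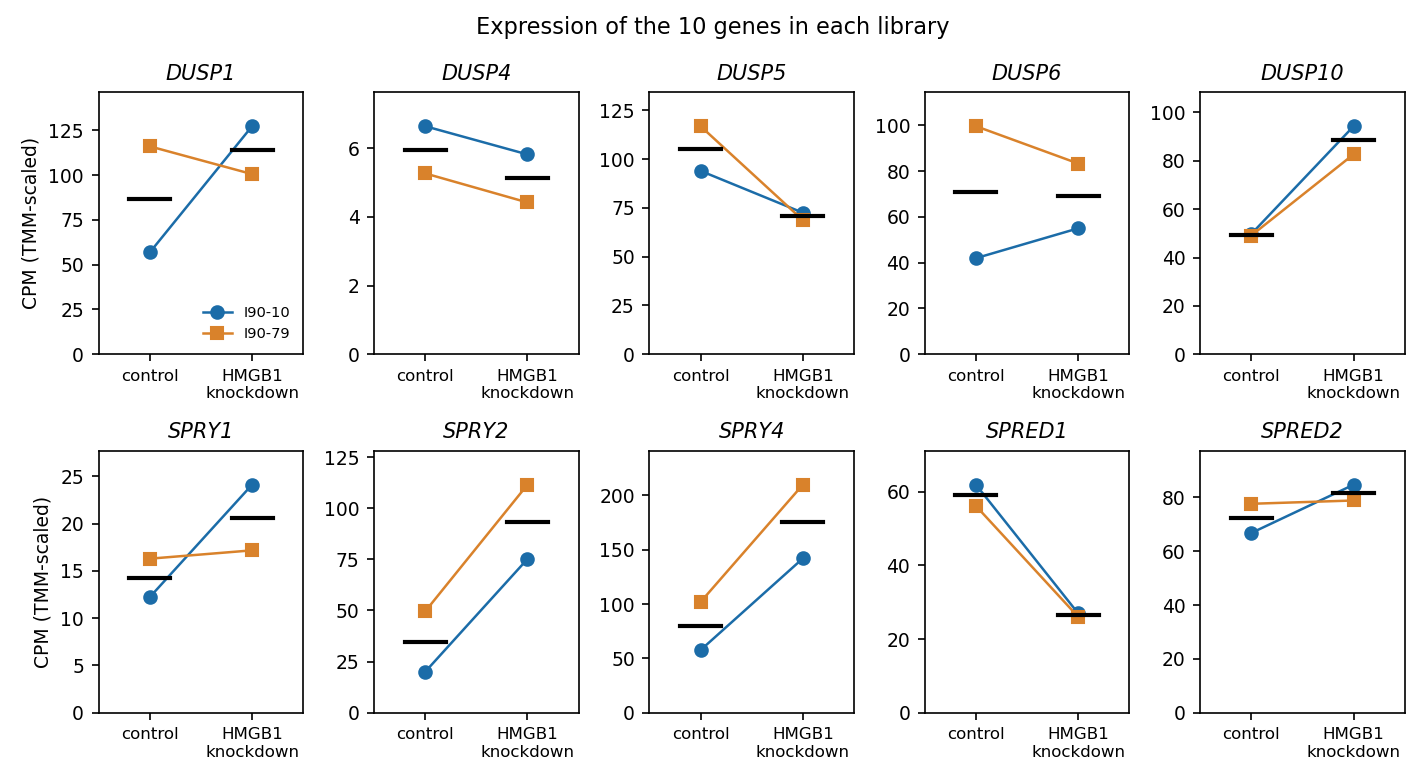
Expression of the 10 genes in each library, in CPM on an axis that starts at 0, for control and HMGB1 knockdown. Circles are isolate I90-10, squares are I90-79, a line joins the libraries of an isolate and a black bar is the group mean (n = 2). SPRY2, SPRY4 and DUSP10 climb and SPRED1 drops in both isolates, while the lines of DUSP1 and DUSP6 run in opposite directions.

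Among the Sprouty genes, SPRY2 showed the largest difference. SPRY2 (ENSG00000136158, chromosome 13 of hg19 from 80910111 to 80915086, minus strand) encodes an ERK-induced inhibitor that binds GRB2 and the ubiquitin ligase CBL. It had 20.0 CPM in the I90-10 control, 49.6 CPM in the I90-79 control, 75.1 CPM in the I90-10 knockdown and 111 CPM in the I90-79 knockdown. Both knockdown libraries were above both controls, and within each group I90-79 was the higher. SPRY2 had a log2 fold change of 1.42 (SE 0.45, adjusted p = 0.115) without the block and 1.53 (SE 0.17, adjusted p = 4.3e-04) with it. The ratio of knockdown to control CPM was 3.75 in I90-10 and 2.25 in I90-79.

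SPRY4 (ENSG00000187678, chromosome 5 from 141689992 to 141706020, minus strand), another ERK-induced inhibitor of receptor signaling, followed the same order of libraries. Its expression was 57.6 CPM and 102 CPM in the controls and 142 CPM and 210 CPM in the knockdown libraries, with I90-10 given first. The groups did not overlap, and I90-79 was again the higher isolate in both. The log2 fold change was 1.14 (SE 0.32, adjusted p = 0.0938) without the block and 1.17 (SE 0.10, adjusted p = 1.8e-04) with it. Without control replicate 2, the higher control for both genes, the log2 fold changes of SPRY2 and SPRY4 without the block were 2.22 and 1.61. Without control replicate 1, the lower control, these were 0.91 and 0.79. Of the 9 other genes, SPRY4 was the one nearest to SPRY2 in its centred log2 CPM profile over the 4 libraries (Euclidean distance 0.50), and the same held for SPRY2 seen from SPRY4. Other pairs lay closer, with SPRY1 at 0.45 from DUSP1, 0.46 from SPRED2 and 0.48 from DUSP10.

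SPRY1 (ENSG00000164056, chromosome 4 from 124317950 to 124324910), the third Sprouty gene, was less abundant and was not called in either fit. It had 12.2 CPM and 16.3 CPM in the controls and 24.1 CPM and 17.2 CPM in the knockdown libraries. The higher control and the lower knockdown library, both from I90-79, differed little, and the difference sat in I90-10. SPRY1 differed by 0.53 on the log2 scale (SE 0.24, adjusted p = 0.217) without the block and 0.52 (SE 0.20, adjusted p = 0.0857) with it.

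The SPRED genes parted from each other, and SPRED1 alone also parted from the Sprouty genes. SPRED1 (ENSG00000166068, chromosome 15 from 38544527 to 38649450) encodes the partner of neurofibromin that is lost in Legius syndrome, a condition of overactive RAS signaling. Its expression was 61.9 CPM and 56.1 CPM in the controls and 26.9 CPM and 26.0 CPM in the knockdown libraries. The isolates lay close together in each group and the groups were far apart. The log2 fold change was −1.16 (SE 0.12, adjusted p = 0.013), a 2.23-fold decrease that missed the threshold of 0.01 without the block, and −1.15 (SE 0.10, adjusted p = 1.7e-04) with it. It had the smallest p of the 10 genes. Over the fits without the block that each left out 1 library, its log2 fold change ran from −1.22 to −1.09. SPRED2 (ENSG00000198369, chromosome 2 from 65537985 to 65659771, minus strand), its close relative, had 66.8 CPM and 77.6 CPM in the controls and 84.7 CPM and 78.9 CPM in the knockdown libraries, a log2 fold change of 0.18 (SE 0.13, adjusted p = 0.402) that was not called in either fit. NF1, which encodes neurofibromin, had 173 CPM and 178 CPM in the controls and 110 CPM and 125 CPM in the knockdown libraries. Its log2 fold change was −0.57 (adjusted p = 0.050, and 0.0029 with the block), short of the fold threshold in both fits.

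The genes outside the pathway lists whose centred log2 CPM profile over the 4 libraries was nearest to that of SPRED1 were ADI1, ZNF554 and RCAN3, at Euclidean distances of 0.049, 0.063 and 0.063. ADI1, for example, had 98.8 CPM and 93.7 CPM in the controls and 44.4 CPM and 42.2 CPM in the knockdown libraries.

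Of the 5 phosphatases among the 10 genes, DUSP10 had the largest log2 fold change. DUSP10 (ENSG00000143507, chromosome 1 from 221874766 to 221915518, minus strand) encodes MKP-5, which acts on JNK and p38 rather than on ERK. It had 49.8 CPM and 49.1 CPM in the controls and 94.3 CPM and 82.7 CPM in the knockdown libraries. The controls were almost equal, and both knockdown libraries were well above them. DUSP10 was higher by 0.84 on the log2 scale (SE 0.12, adjusted p = 0.023) without the block and 0.84 (SE 0.10, adjusted p = 6.7e-04) with it.

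DUSP5 (ENSG00000138166, chromosome 10 from 112257596 to 112271302) encodes a nuclear phosphatase specific for ERK. Its expression was 94.0 CPM and 117 CPM in the controls and 72.5 CPM and 68.8 CPM in the knockdown libraries. Both knockdown libraries were below both controls. The log2 fold change of −0.58 (SE 0.14, adjusted p = 0.0705) became −0.57 (SE 0.12, adjusted p = 0.0078) with the block, where the p but not the fold change passed its threshold. RUVs followed by DESeq2, the sequence of steps in the study's methods, called it down beside SPRED1, with SPRY2, SPRY4 and DUSP10 up, where 4.94% of all genes were called up, 5.36% down and 10.3% in either direction.

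DUSP6 (ENSG00000139318, chromosome 12 from 89741009 to 89747048, minus strand) encodes MKP-3, the cytoplasmic ERK phosphatase often read as a gauge of ERK activity. It had 42.0 CPM and 99.6 CPM in the controls and 55.0 CPM and 83.3 CPM in the knockdown libraries. The knockdown libraries lay between the controls, so the groups overlapped, and I90-79 was the higher isolate in each. The log2 fold change was −0.03 (SE 0.43, adjusted p = 0.967) without the block and 0.059 (SE 0.15, adjusted p = 0.799) with it.

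DUSP1 (ENSG00000120129, chromosome 5 from 172195093 to 172198198, minus strand) encodes MKP-1, a nuclear immediate early phosphatase of p38, JNK and ERK. Its expression was 56.9 CPM and 116 CPM in the controls and 127 CPM and 101 CPM in the knockdown libraries. The I90-10 control stood below the other libraries, and the groups overlapped. DUSP1 differed by 0.40 on the log2 scale (SE 0.34, adjusted p = 0.495), and 0.47 (SE 0.27, adjusted p = 0.213) with the block. DUSP4 (ENSG00000120875, chromosome 8 from 29190581 to 29208185, minus strand) encodes MKP-2, a nuclear relative of MKP-1. It was the least abundant of the 10 genes, with 6.64 CPM and 5.26 CPM in the controls and 5.82 CPM and 4.42 CPM in the knockdown libraries. The groups overlapped, at a log2 fold change of −0.22 (SE 0.25, adjusted p = 0.614).

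**Figure D2:**
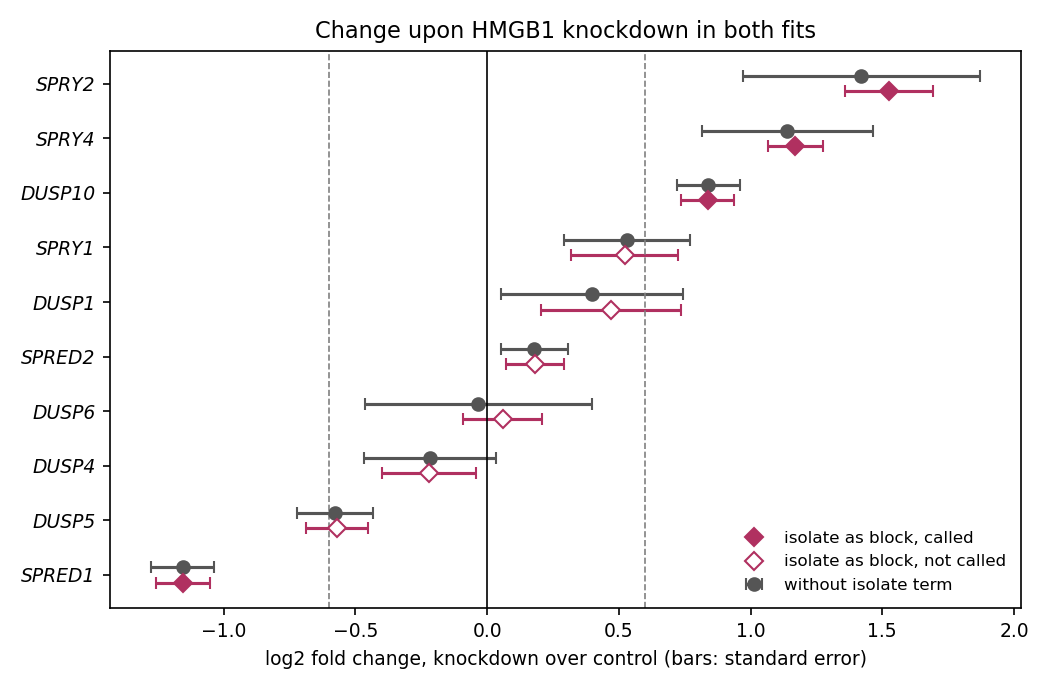
Log2 fold change of the 10 genes in knockdown over control (x axis) with its standard error, without an isolate term (grey circles) and with that term, the replicate block (diamonds, filled where called); dashed lines mark 0.6 and −0.6. SPRY2, SPRY4 and DUSP10 lie beyond 0.6 and SPRED1 beyond −0.6 in both fits, and the block shortens the error bars of SPRY2, SPRY4 and DUSP6.

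Counted without any model, both knockdown libraries were above both controls for 5 of the 10 genes and below them for 2, against 29.8% and 30.2% of all genes tested, 59.9% in all. The groups of DUSP1, DUSP4 and DUSP6 overlapped. The 5 genes above include SPRY1 and SPRED2, for which the gap between the groups was small and neither fit made a call.

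Divided by exonic length, so that genes can be compared, DUSP1 and DUSP5 had the highest levels in the controls. Their means were 42.8 ± 20.7 and 40.3 ± 6.19 CPM per kb (SD, n = 2), and their ranges overlapped. DUSP6, DUSP10, SPRED2, SPRY4 and SPRY2 followed between 15.3 and 10.6 CPM per kb, each overlapping the next. The range of SPRED1, at 7.14 ± 0.493 CPM per kb (SD, n = 2), overlapped that of SPRY2 but not that of SPRY1, at 3.60 ± 0.725 (SD, n = 2). DUSP4 was lowest at 0.820 ± 0.134 CPM per kb (SD, n = 2). In the knockdown, DUSP1 stood alone at the top at 56.4 ± 9.36 CPM per kb (SD, n = 2), and SPRY4 and SPRY2, at 29.7 ± 8.09 and 28.4 ± 7.81 CPM per kb (SD, n = 2), stood next to DUSP5 and DUSP10, with overlapping ranges. SPRED1, at 3.20 ± 0.0803 CPM per kb (SD, n = 2), was below SPRY1, at 5.21 ± 1.24 (SD, n = 2), so these genes had changed places.

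The control libraries of the isolates differed in several of these genes. Isolate and replicate number coincide, so a difference between isolates cannot be told apart from one between replicates. In the controls, I90-79 exceeded I90-10 by over 0.6 on the log2 scale for 4 of the 10 genes, against 8.73% of all genes tested. These were DUSP1 (a difference of 1.03), DUSP6 (1.25), SPRY2 (1.31) and SPRY4 (0.82), and each value compares a single library with another, without a test. In the knockdown libraries 0 of the 10 genes exceeded this difference, against 6.48% of all genes. DUSP6, SPRY2 and SPRY4 were then at 0.60, 0.57 and 0.56, just inside it, and DUSP1 was at −0.34. The change upon knockdown had opposite signs in the isolates for 2 of the 10 genes, DUSP1 and DUSP6, against 21.7% of all genes, with 5 genes higher and 3 lower in both isolates.

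**Figure D3:**
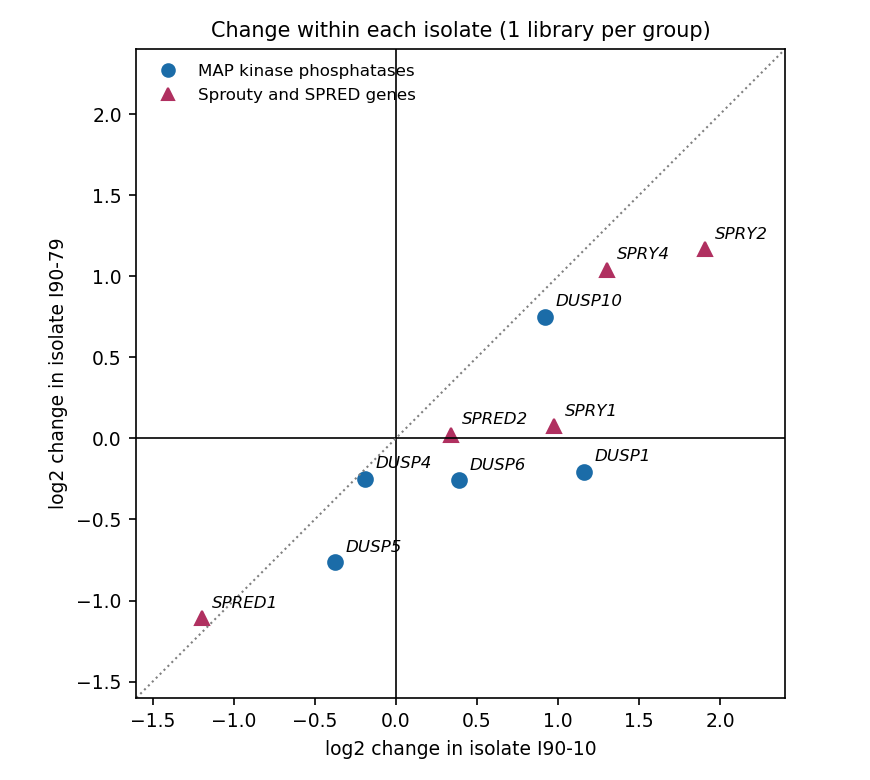
Log2 change of each gene between knockdown and control within isolate I90-10 (x axis) and within isolate I90-79 (y axis), with 1 library per group and isolate; circles are phosphatases, triangles are Sprouty and SPRED genes, and the dotted line marks equal change. SPRY2, SPRY4, DUSP10 and SPRED1 lie on the same side of 0 in both isolates, while DUSP1 and DUSP6 change sign.

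The 3′ untranslated regions of the genes were searched for GCAGTT, a word whose presence goes with lower log2 fold changes across the genes of these libraries and which was picked from these data. Among 12376 tested genes with at least 100 bases of annotated 3′ UTR in their canonical transcript (GENCODE lifted to hg19), 36.2% held the word. Their median log2 fold change was −0.16, against 0.07 for genes without it. Of the 10 genes, 7 held it. DUSP10, SPRY1 and SPRY2 had 0 copies, SPRY4, SPRED2 and DUSP1 had 1, DUSP5 and DUSP6 had 2, and SPRED1 and DUSP4 had 3. The 3 genes without a copy had log2 fold changes of 0.84, 0.53 and 1.42. Those with 1 copy had 1.14 (SPRY4), 0.18 (SPRED2) and 0.40 (DUSP1), those with 2 had −0.58 (DUSP5) and −0.035 (DUSP6), and those with 3 had −1.16 (SPRED1) and −0.22 (DUSP4), none of them called without the block. The 3′ UTR of SPRED1 is 5588 bases long, against a median of 1418, so the number of copies also follows length. Per kb of 3′ UTR, the order differed, with 1.8 copies in DUSP5, 1.49 in DUSP1, 0.989 in DUSP6 and 0.757 in DUSP4. SPRED1 had 0.537 copies per kb, SPRED2 0.377 and SPRY4 0.264. Because the word was picked from these data, the 10 genes cannot serve as a test of it. The part of the word in these changes was not tested. The sites of SPRED1 and DUSP5, the genes of the 10 with both knockdown libraries below both controls, and that of SPRY4, called up with the block, are shown as 30 bases of the sense strand of hg19, with the word in capitals.
SPRED1 site 1, chr15:38644331-38644360, plus strand: tgttttttgaaaGCAGTTttatgtataaat
SPRED1 site 2, chr15:38645728-38645757, plus strand: acactgtaggcaGCAGTTttaagtcttatt
SPRED1 site 3, chr15:38649369-38649398, plus strand: gctctaagatttGCAGTTttagtgagatct
DUSP5 site 1, chr10:112270537-112270566, plus strand: ccaggagaaaagGCAGTTatgaagccaatt
DUSP5 site 2, chr10:112270599-112270628, plus strand: ttttgaactttgGCAGTTtcaatgtctgtc
SPRY4 site 1, chr5:141693193-141693222, minus strand: tagaacaccctaGCAGTTcctattgtatat

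Little of the sequence of the 10 genes is shared with other genes. None of their exonic bases overlapped an exon of another gene in the files, and of their 50-base transcript pieces none occurred in transcripts of another gene, except for 1.58% of those of SPRED1.

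The rest of the pathway was read from lists of genes with known roles. These lists were chosen with earlier results of these data known, so the share of them called is no independent test. The 8 lists hold 141 genes, of which 140 had an identifier in the files and 126 were tested. Without the block 1 was called up and 0 down, against 0.0649% and 0.136% of all genes tested. With it 24 were called up and 17 down, 32.5% of the list genes tested. Among all genes tested the block gave 6.68% up and 7.84% down, 14.5% in all. By list, the share called with the block was lowest for the atypical phosphatases (0%) and the receptor tyrosine kinases (21.4%). It was highest for the growth factor ligands (46.7%) and the JNK and p38 cascades (50%). Genes of these lists outside the 3 with the smallest p of each were named after their values had been seen. Of the genes named below, IER2 (30.8%), IER3 (26.5%), PHLDA1 (16.5%), PDGFRA (15.8%), JUNB (14.3%), FGF2 (13.0%), LRIG1 (12.9%), DUSP28 (12.5%) and others to a lesser degree share exonic bases with a neighbouring gene, whose reads cannot be told apart where the counting did not use strand.

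Among the remaining MAP kinase phosphatases and Sprouty or SPRED genes, 5 of 7 were tested, and with the block 1 was called up and 1 down. DUSP2, an inducible nuclear phosphatase, had 1.74 CPM and 2.52 CPM in the controls and 5.23 CPM and 6.53 CPM in the knockdown libraries (log2 fold change 1.46, SE 0.29, adjusted p = 0.046, and 0.0016 with the block). DUSP8, a phosphatase of JNK and p38, had 12.3 CPM and 11.9 CPM in the controls and 6.02 CPM and 7.17 CPM in the knockdown libraries (log2 fold change −0.88, SE 0.18, adjusted p = 0.0495, and 0.0046 with the block). SPRED3, at a log2 fold change of 0.34 (adjusted p = 0.492), was not called, and DUSP9 and SPRY3 were too low to be tested. Of 12 atypical dual-specificity phosphatases, 8 were tested and 0 were called in either fit. Their smallest p were those of DUSP3, with a log2 fold change of 0.50 (adjusted p = 0.061, and 0.0054 with the block), DUSP28, with 0.75 (adjusted p = 0.149), and DUSP11, with −0.30 (adjusted p = 0.190).

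Among 16 other inhibitors of receptors and RAS, all tested, 2 were called up and 2 down with the block. ERRFI1, which encodes a feedback inhibitor of the EGF receptor, had 229 CPM and 114 CPM in the controls and 41.0 CPM and 34.5 CPM in the knockdown libraries, a log2 fold change of −2.18 (SE 0.34, adjusted p = 0.028) without the block and −2.11 (SE 0.17, adjusted p = 1.2e-04) with it. CBL, the ubiquitin ligase that SPRY2 binds, had 34.7 CPM and 42.2 CPM in the controls and 79.6 CPM and 85.5 CPM in the knockdown libraries, a log2 fold change of 1.10 (adjusted p = 0.019, and 2.1e-04 with the block). The other genes called with the block were RASA2, up, and LRIG1, down. The list thus held genes called in both directions, and its median log2 fold change was −0.21.

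Of 20 growth factor ligands, 15 were tested. Under the block 5 were called up and 2 down, against 6.68% and 7.84% of all genes. HGF, the ligand of MET, had 239 CPM and 479 CPM in the controls and 1076 CPM and 1341 CPM in the knockdown libraries (log2 fold change 1.75, SE 0.35, adjusted p = 0.047, and 1.6e-04 with the block). EREG, AREG, NRG1 and FGF2 were the others called up. EREG, a ligand of the EGF receptor, had 1.40 CPM and 15.5 CPM in the controls and 42.1 CPM and 122 CPM in the knockdown libraries. FGF1, at a log2 fold change of −3.04 (adjusted p = 0.023, and 2.3e-04 with the block), and HBEGF, at −1.56 (adjusted p = 0.067, and 0.0065 with the block), were called down with the block. Of 17 receptor tyrosine kinases 14 were tested, and with the block DDR1 was called up, at a log2 fold change of 0.62 (adjusted p = 0.0028), and PDGFRB and KIT down. MET and PDGFRA, with log2 fold changes of 0.45 (adjusted p = 0.119) and 0.58 (adjusted p = 0.141) without the block, were called in neither fit.

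In the RAS-ERK cascade, 26 of 27 genes were tested. Under the block 1 was called up and 6 were called down, against 6.68% and 7.84% of all genes. NRAS had 91.6 CPM and 87.6 CPM in the controls and 41.5 CPM and 41.6 CPM in the knockdown libraries (log2 fold change −1.11, SE 0.11, adjusted p = 0.012, and 1.7e-04 with the block). FRS2, which docks to FGF receptors, had a log2 fold change of −0.99 (adjusted p = 0.020, and 6.4e-04 with the block), and GAB1, RRAS2 and MRAS were also called down with the block. HRAS was called up with the block, at 0.73 (adjusted p = 0.0013). The median of the list was −0.05.

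In the JNK and p38 cascades all 24 genes were tested. Under the block 8 were called up and 4 down, against 6.68% and 7.84% of all genes. MAPK8IP2, a scaffold of the JNK pathway, was the gene of all lists that passed without the block, from 0.340 CPM and 0.326 CPM in the controls to 15.4 CPM and 13.4 CPM in the knockdown libraries (log2 fold change 5.42, SE 0.25, adjusted p = 0.0075). The p38 kinase genes MAPK11 and MAPK13, their activator MAP2K6 and the p38 targets MAPKAPK2 and MAPKAPK3 were called up with the block, at log2 fold changes from 0.62 (MAPKAPK2) to 1.35 (MAPK11). MAP3K3, an upstream kinase, had a log2 fold change of −1.47 (SE 0.12, adjusted p = 0.0104, and 8.3e-05 with the block), and MAPK9, which encodes the kinase JNK2, one of −0.99 (SE 0.11, adjusted p = 0.015, and 3.5e-04 with the block). The other genes of the list called with the block were MAP3K5 and MAPK8IP3, up, and MAP3K1 and MAPK8IP1, down. The main p38 kinase gene MAPK14 had 70.9 CPM and 72.9 CPM in the controls and 68.0 CPM and 74.2 CPM in the knockdown libraries. Genes of this list were therefore called in both directions, with MAPK14 and MAPK8 not among them.

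Of 18 genes transcribed in response to ERK, all were tested, and without the block 0 were called. Under the block 6 were called up and 0 down, against 6.68% and 7.84% of all genes. EGR2, a zinc finger transcription factor, had 3.27 CPM and 3.37 CPM in the controls and 13.7 CPM and 13.4 CPM in the knockdown libraries (log2 fold change 2.03, SE 0.18, adjusted p = 0.0104, and 1.3e-04 with the block). JUNB, a subunit of AP-1, had 72.8 CPM and 82.7 CPM in the controls and 239 CPM and 208 CPM in the knockdown libraries (log2 fold change 1.52, SE 0.14, adjusted p = 0.011, and 1.0e-04 with the block). IER2, with 0.64 (adjusted p = 0.065, and 0.0030 with the block), FOSB, IER3 and PHLDA1 were also called up with the block. EGR1, FOSL1, CCND1 and ETV5 were called in neither fit, and the median of the list was 0.53. IER3 had 138 CPM and 347 CPM in the controls and 555 CPM and 887 CPM in the knockdown libraries.

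**Figure D4:**
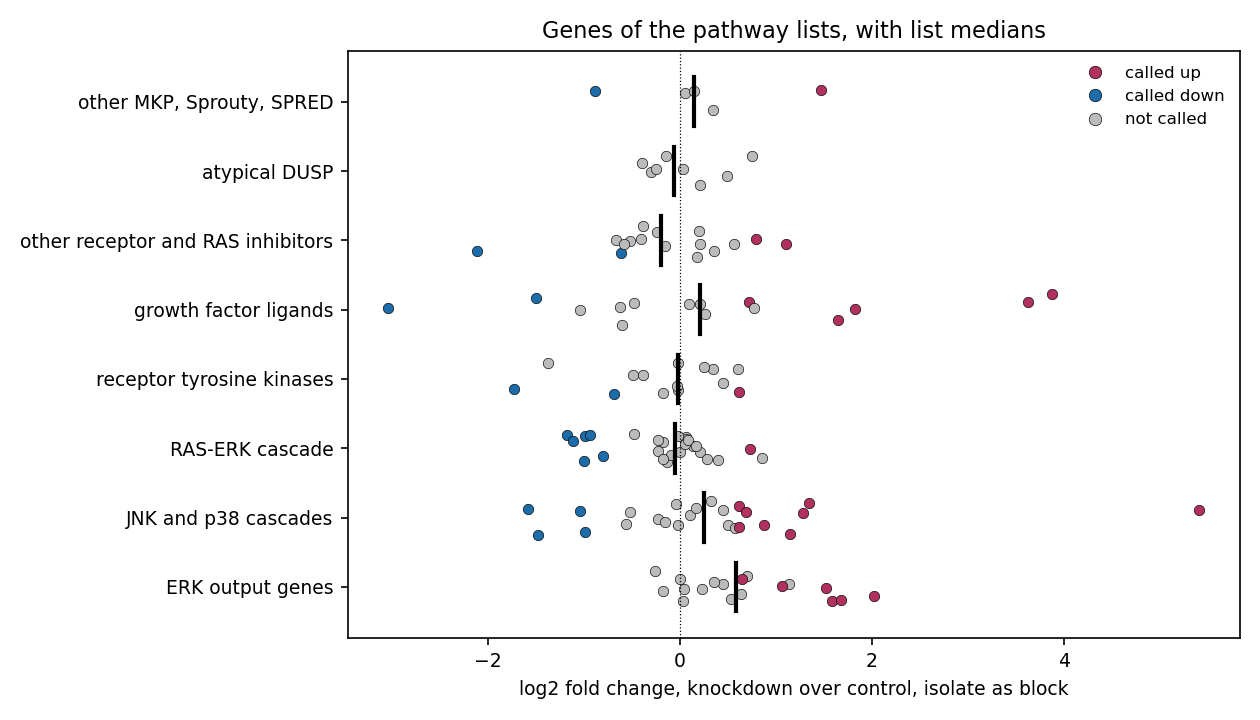
Log2 fold change in knockdown over control in the fit with the replicate block (x axis), of each tested gene in the 8 pathway lists; red points were called up, blue points down, grey points were not called, a black bar is the list median, and the vertical scatter within a list carries no value. Calls go both ways in every list that has more than 1, except the ERK output genes, where 6 were called up and 0 down, and the atypical phosphatases have 0.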

How the data were processed

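Poly(A) RNA was sequenced from 2 control and 2 HMGB1 knockdown cultures of IMR90, 1 library of each isolate per group. The authors mapped paired-end reads to hg19 with STAR and deposited raw counts of unique reads per gene from featureCounts, without normalization; tool versions, the strand setting and the counting of pairs are not given in the sources used here. The 5904 contig genes (patches, haplotypes) and the 37 mitochondrial genes have 0 reads. Symbols were matched by Ensembl identifier for 55538 of 57773 genes, and DUSP14 and PECAM1 found no match.

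From these counts, edgeR 4.0.16 (R 4.3.3) was run on all 4 libraries with filterByExpr, TMM factors, its quasi-likelihood test and p adjusted by Benjamini and Hochberg over 15398 genes. Both fits were also run on simulated counts whose spread was that of the fit with the block. That spread is smaller than without the block, so the simulation does not check the fit without it at its own spread. The thresholds are those of the study's methods. Same-numbered libraries share an isolate, and across genes their isolate differences correlated at 0.46 between control and knockdown. The block was therefore run beside the fit without it. Nothing in the labels says whether libraries of an isolate came from separate cultures of that isolate, so p-values measure the spread between these libraries. Values within an isolate are differences of log2 CPM with a prior count of 2.

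The members and lists were chosen with earlier results of these data known. Genes named by a fixed rule are the 10 members, HMGB1, every list gene called without the block, the 3 smallest p of each list and the 3 genes nearest to the member with the smallest p. Other list genes were named after their values had been seen. Some genes of the lists are counted but not reported by name here. Alternatives were DESeq2 1.42.0, RUVs with 1 factor before DESeq2 (written out from its published form, on upper-quartile scaled counts), other size factors, other filters, thinned counts, other thresholds, the block and leaving out each library. DESeq2 with the block was added after seeing the data.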

Additional observations from a re-analysis of the deposited data

Results flagged for a closer look

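DUSP1 and DUSP6 moved in opposite directions in the isolates. The log2 change of DUSP1 was 1.16 in I90-10 and −0.21 in I90-79, and that of DUSP6 was 0.39 in I90-10 and −0.26 in I90-79. With 1 library per isolate and group the difference between isolates could not be tested. A change of opposite sign was found for 21.7% of all genes tested. In both genes the I90-10 control was the lowest of the 4 libraries.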

How the results depend on the processing

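Groups of 2 libraries limit every call, and leaving 1 out assumes that the lone library varies like the other group. Under the replicate block, which pairs the libraries by isolate, the numbers called up and down were 1028 and 1207 over all genes, 3 and 1 among the 10 genes, and 24 and 17 among the pathway lists, against 10 and 21, 0 and 0, and 1 and 0 without it. DESeq2 with the replicate block gave 967 and 1091, 3 and 1, and 25 and 17. DESeq2 without it gave 725 and 817, 3 and 1, and 16 and 14. RUVs with 1 factor followed by DESeq2 gave 760 and 826, 3 and 2, and 20 and 14. Without a filter on low counts there were 1118 and 1275, 3 and 1, and 26 and 18. At an adjusted p below 0.05 there were 575 and 668, 1 and 1, and 11 and 12. With at least 10 counts in every library, 6 genes in all were called up. Leaving out each library in turn gave 0 to 305 genes up and 0 to 337 down, 0 to 2 of the 10 genes up and 0 to 1 down, and 0 to 11 list genes up and 0 to 8 down, with 0 without either knockdown library and the highest counts without control replicate 2 (SPRED1 also without control replicate 1). Other size factors, thinned counts, the filter of 10 counts and no fold threshold left the calls among the 10 genes at 0. The direction of DUSP6 reversed with the replicate block (0.059), with DESeq2 and the replicate block (0.066), without control replicate 2 (0.72) and without knockdown replicate 1 (0.23), and that of DUSP1 without control replicate 1 (−0.028). Over the fits that each left out 1 library, DUSP6 ran from −0.53 to 0.72 and DUSP1 from −0.028 to 1.003. The cause was not tested. HMGB1 and MAPK8IP2 were no longer called without either knockdown library, where no gene was. In CPM without division by length, 7 of the 10 genes took another place in the order of levels.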
